A study of Mus musculus with 9 samples.

Results

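Toll-like receptors (TLRs) and NOD receptors are the sensors with which macrophages detect microbial molecules. They were followed here through 36 genes, from the receptors and their co-receptors to the adaptors, kinases, ubiquitin ligases and inhibitors behind them. The genes were chosen by name as components of this signalling route, with earlier results of these data known. Shares of them called therefore describe the list and do not test it. Each gene was read from the rows that carry its symbol. They are 36 of the 22376 gene symbols in the deposited files, all 36 were found, and all 36 were among the 13728 genes that passed the filter on low values and were tested.

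The cells were bone-marrow-derived macrophages of wild-type C57Bl/6 mice, grown from the marrow of tibias and femurs. Marrow was held for 1 week in bags with 10 ng/ml of macrophage colony-stimulating factor (M-CSF), the growth factor that turns marrow progenitors into macrophages. The factor was then washed away, and 50000 cells were plated for 48 h in polystyrene wells with or without antibody. There were 3 groups of 3 libraries: libraries 1 to 3 from wells with a PD-L1 antibody at 100 µg/ml, libraries 4 to 6 from wells with 100 µg/ml of an irrelevant isotype-matched antibody, and libraries 7 to 9 from untreated wells. PD-L1 is the ligand of the inhibitory receptor PD-1, and macrophages carry it on their surface. Whether the libraries of a group trace back to separate wells, cultures or animals is not in the labels. The p-values therefore measure no more than the spread between these libraries, part or all of which may be technical.

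A TLR that binds its ligand gathers adaptors with a TIR domain. MyD88 recruits the IRAK kinases and TRAF6, which act through the TAK1 complex on NF-kB and MAP kinases, whereas TRIF acts through TRAF3 on interferon regulatory factors. NOD1 and NOD2 sense fragments of bacterial peptidoglycan in the cytosol and signal through the kinase RIPK2 to the same TAK1 complex. Macrophages exposed to these signals also make inhibitors that dampen the route, of which IRAK-M, the product of Irak3, is a well-known example.

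Levels are given as CPM, counted in exonic read equivalents per 1e+06 of the scaled library total. Differences are on the log2(CPM + 1) scale with the standard error (SE) from limma, and this scale understates the change of low genes. A gene is called higher or lower where limma's Benjamini-Hochberg adjusted p, over all 13728 genes, is under 0.05. Total exonic read equivalents ran from 23554320 in untreated library 7 to 40116467 in untreated library 9. Cd274, which encodes PD-L1, averaged 662 ± 93 CPM under PD-L1 antibody, against 226 ± 44.6 CPM under isotype antibody and 221 ± 22.9 CPM in untreated wells (SD, n = 3 each). The antibody acts on the protein, so the transcript does not check the labels. The 8 macrophage markers examined summed to 21520 to 25270 CPM in PD-L1 antibody libraries, 19840 to 23300 CPM in isotype antibody libraries and 17710 to 23490 CPM in untreated libraries. All 8 had a value in every library, but so did the 10 neutrophil markers listed, so presence alone does not check the macrophage label. Under PD-L1 antibody, 3 of the 8 macrophage markers were higher than under isotype antibody (Adgre1, Fcgr1 and Itgam) and 1 was lower (Cd68). Untreated library 7 stood apart from untreated libraries 8 and 9 in Ly86, Unc93b1 and Traf3, and results against untreated wells are therefore also given without it.

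Under PD-L1 antibody, 15 of the 36 genes rose and 1 fell relative to the isotype antibody, and 20 did not pass the threshold. The 15 are 41.7% of the 36, beside 18.2% of all tested genes called higher. The 1 lower gene is 2.78% of the 36, beside 18.2% of all tested genes called lower, and 36.4% of all tested genes were called in either direction. The median log2 difference was 0.14 over the 36 genes and -0.01 over all tested genes. The rises were those of the receptors Tlr1, Tlr2, Tlr3, Tlr6, Nod1 and Nod2, the co-receptors Cd14 and Ly96, the adaptors Myd88 and Ticam2, the kinases Irak2 and Ripk2, the ligases Traf3 and Peli1, and the inhibitor Irak3. No gene of the TAK1 complex passed the threshold with this scaling. When libraries were scaled by their totals alone, the median of all tested genes shifted to -0.16, and the split became 11 higher and 10 lower among the 36 genes and 1565 higher and 4148 lower among all genes, against 2502 higher and 2500 lower with the scaling used here.

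**Figure D1:**
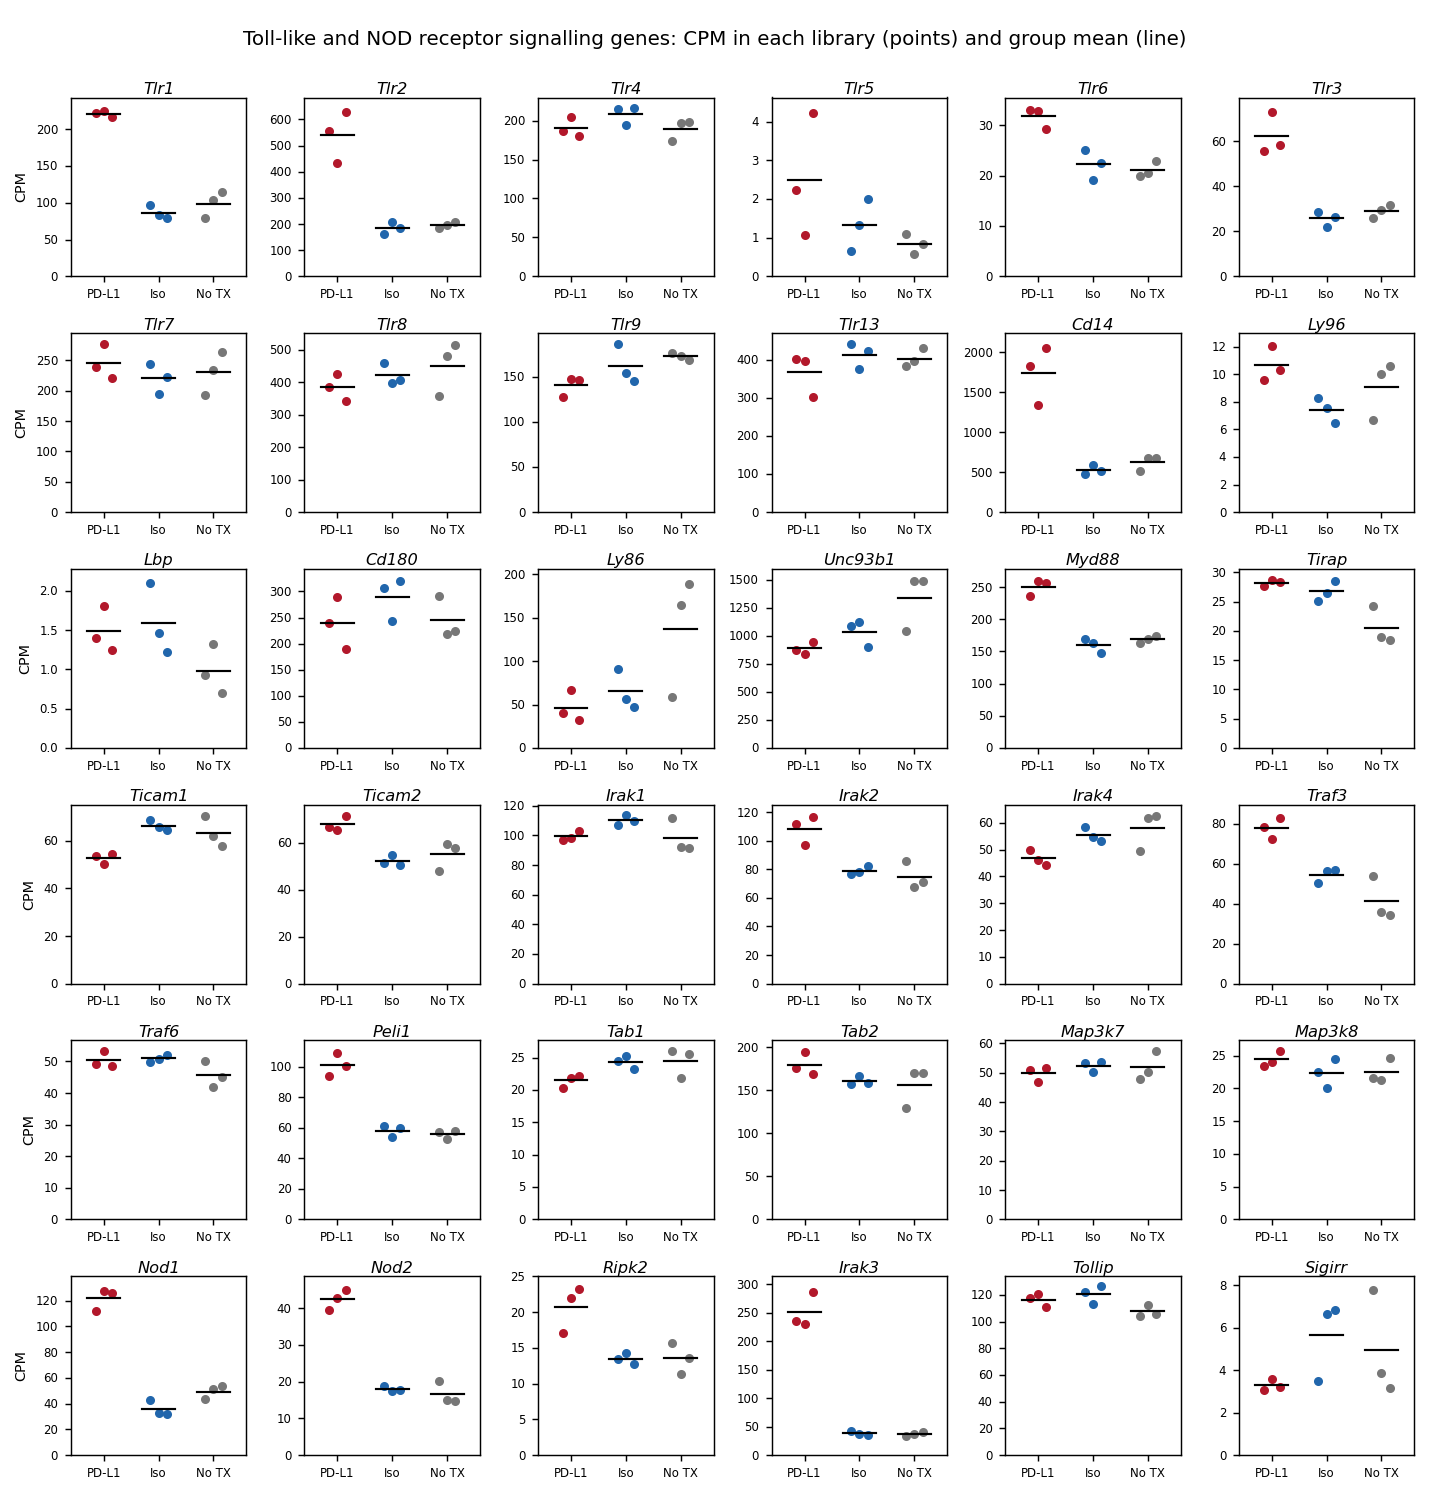
CPM of each of the 36 genes (vertical axes from 0) in the 3 PD-L1 antibody, 3 isotype antibody and 3 untreated libraries (horizontal axis, points in library order), with the group mean as a line, ordered by role in the route. In 14 panels, among them Tlr1, Tlr2, Cd14, Nod1, Nod2 and Irak3, all 3 PD-L1 antibody points lie above the other 6.

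Relative to untreated wells, 16 of the 36 genes were higher under PD-L1 antibody and 5 were lower. These are 44.4% and 13.9% of the 36, beside 22.0% of all tested genes called higher and 20.5% called lower, 42.5% in either direction. The median log2 difference of the 36 genes was 0.22, against -0.01 over all tested genes. Without untreated library 7, the counts were 17 higher and 5 lower, beside 24.6% of all genes called higher and 23.8% called lower. Both comparisons use the same 3 PD-L1 antibody libraries, so they are given side by side and not counted as separate evidence. By the deposited names, PD-L1 antibody library 2 carries another lane number than the other 8 libraries, and without it the counts were 15 higher and 1 lower against the isotype antibody and 16 higher and 3 lower against untreated wells. The lower count against untreated wells was also 3 without PD-L1 antibody library 1 or 3, 1 without untreated library 8 and 2 without untreated library 9. The lower count against the isotype antibody was 2 without isotype antibody library 4 and 3 without untreated library 7. In 14 genes all 3 PD-L1 antibody libraries lay above all 6 others, 38.9% of the 36 beside 20.9% of all tested genes. In 1 gene, Ticam1, all 3 lay below all 6 others, beside 19.2% of all tested genes. Total-count scaling gave 13 higher and 7 lower members here, and 1939 higher and 4089 lower among all genes, against 3018 higher and 2812 lower with the scaling used.

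**Figure D2:**
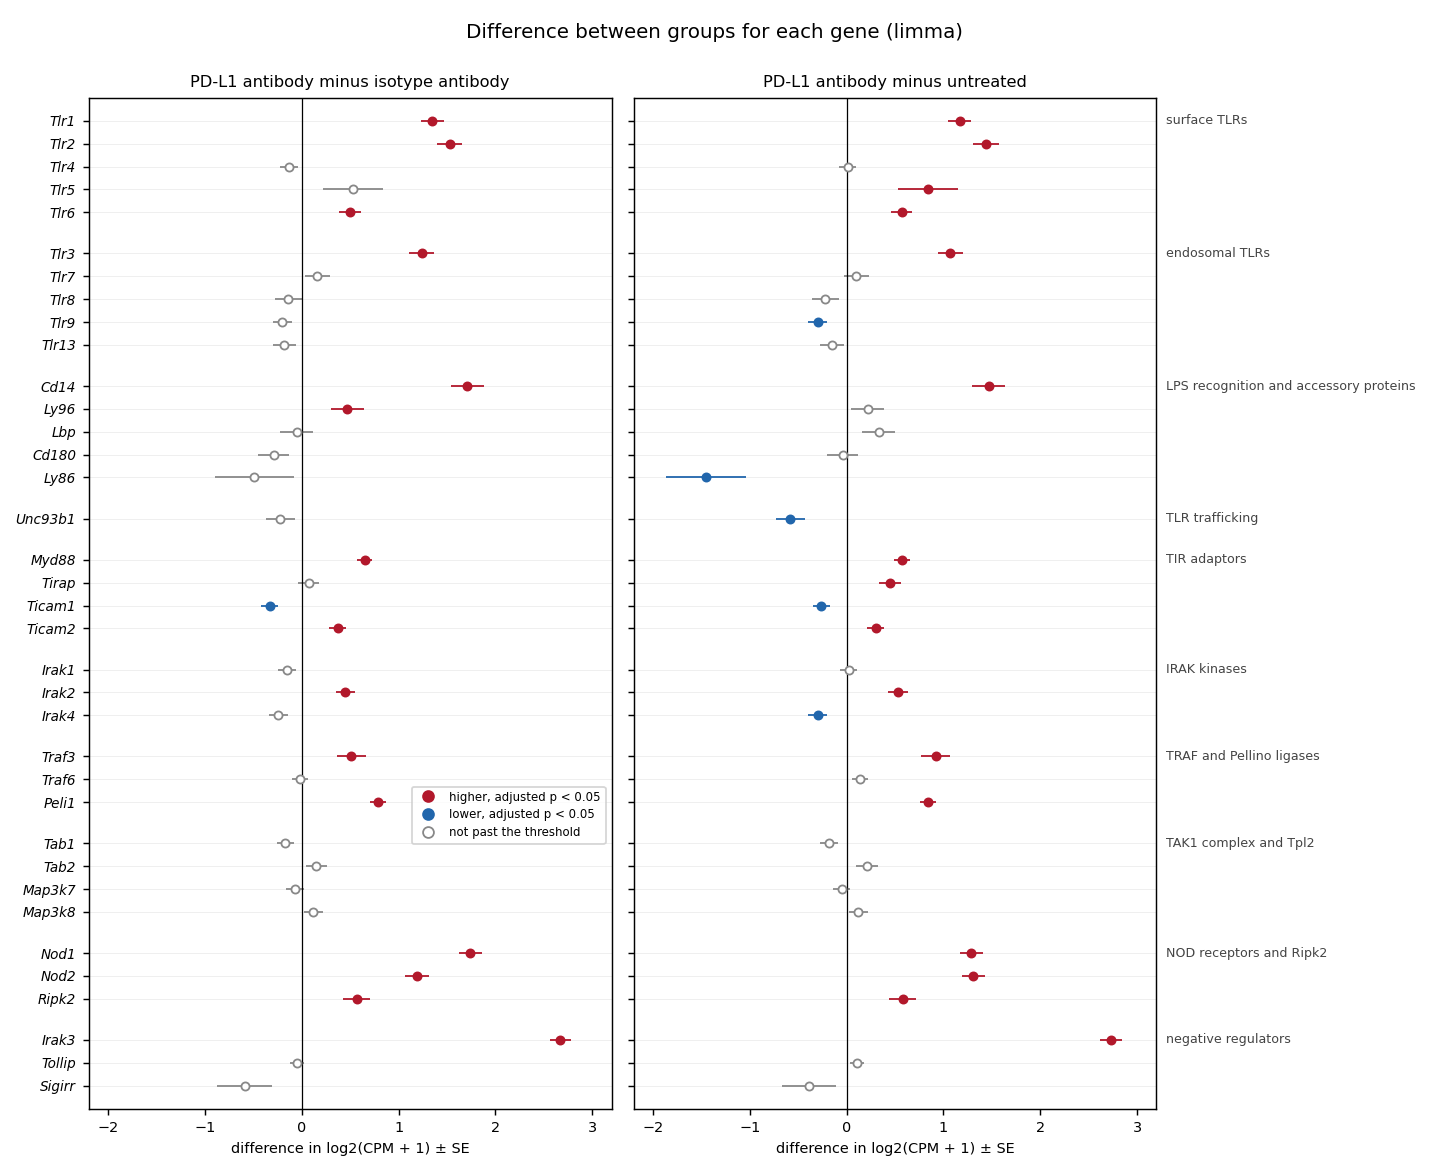
Difference in log2(CPM + 1) with its SE for each gene, PD-L1 antibody minus isotype antibody on the left and PD-L1 antibody minus untreated on the right, with filled points past limma's adjusted p of 0.05. Irak3 lies farthest to the right in both panels, at 2.67 and 2.73, and the 4 genes of the TAK1 complex and Tpl2 stay near 0.

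Markers of other marrow cells moved with the comparison. Of 9 tested neutrophil markers, 5 were called lower under PD-L1 antibody than under isotype antibody, beside 18.2% of all tested genes called lower, and 7 were lower than in untreated wells, beside 20.5%. The 10 listed summed to 356.5 to 499.7 CPM in PD-L1 antibody libraries, 686 to 1281 CPM in isotype antibody libraries and 516 to 715 CPM in untreated libraries, with isotype antibody library 4 the highest. The defining neutrophil marker Ly6g was at or under 0.322 CPM in all 9 libraries. Of 7 dendritic cell markers, 4 were lower in both comparisons (Flt3, Clec9a, Cd209a and Siglech), with every PD-L1 antibody library below the 6 others. Xcr1 was higher in both (1.29, adjusted p = 5.22e-05, and 1.39, adjusted p = 2.95e-05, limma), with every PD-L1 antibody library above the 6 others. Without untreated library 7, Zbtb46, Xcr1 and Ccr7 were higher than in untreated wells, 3 markers were lower, and Flt3 was not called (-0.26, adjusted p = 0.0906). Of all tested genes, 24.6% were then higher and 23.8% lower. The shares of all tested genes called lower, 18.2% and 20.5%, apply to each marker list here. Most of the summed level of this list is Ccr7, which was not called with all 9 libraries. The other 6 summed to 17.8 to 22.7 CPM under PD-L1 antibody, 27.1 to 35.5 CPM under isotype antibody and 21.7 to 35.2 CPM in untreated wells. Of 4 tested erythroid markers, 2 were lower than under isotype antibody and 3 lower than in untreated wells, and the 6 listed summed to 1.95 to 3.71 CPM under PD-L1 antibody, 6.25 to 13.9 CPM under isotype antibody and 11.35 to 14.5 CPM in untreated wells. The 2 are the near-identical copies Hba-a1 and Hba-a2 (-1.20 each, adjusted p = 0.00214, limma), whose reads cannot be told apart. They are also 2 of the 3 lower than in untreated wells, and the sum counts their reads once for each copy. The other 4 listed were under 1 CPM in every library. Of 5 stromal markers, Col3a1 was higher than under isotype antibody (1.55, adjusted p = 0.00384) and Col1a2 lower than in untreated wells (-0.92, adjusted p = 0.0192), and their sums overlapped, at 25.1 to 43.4 CPM under PD-L1 antibody, 20.95 to 33.9 CPM under isotype antibody and 28.97 to 56.5 CPM in untreated wells. None of 4 tested T and NK cell markers and none of 3 tested mast cell and basophil markers were called against the isotype antibody, and 1 T and NK cell marker was lower than in untreated wells. The T and NK cell list summed to at most 5.97 CPM and the mast cell and basophil list to at most 18.2 CPM in any library. The part of these cells in the values of the 36 genes was not tested.

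TLR2 recognises bacterial lipoproteins, as a heterodimer with TLR1 for triacylated and with TLR6 for diacylated ones, and the genes of all 3 partners rose. Tlr2 stood at 555, 434 and 628 CPM in PD-L1 antibody libraries, 162, 207 and 184.5 CPM in isotype antibody libraries, and 186, 198 and 206 CPM in untreated libraries. The lowest PD-L1 antibody library lay above the highest of the other 6. The log2 difference from the isotype antibody was 1.53 ± 0.13, a fold of 2.89 (adjusted p = 6.96e-06, limma), and that from untreated wells was 1.44 ± 0.13 (adjusted p = 1.09e-05). The promoter of Tlr2 is shown because it is the member promoter with the most matches to the NF-kB consensus. It runs from 250 bases before to 50 bases after the start in RefSeq (GRCm38.p6, chr3:83841559-83841858, minus strand, printed 5′ to 3′), with the matches in capitals.
Tlr2: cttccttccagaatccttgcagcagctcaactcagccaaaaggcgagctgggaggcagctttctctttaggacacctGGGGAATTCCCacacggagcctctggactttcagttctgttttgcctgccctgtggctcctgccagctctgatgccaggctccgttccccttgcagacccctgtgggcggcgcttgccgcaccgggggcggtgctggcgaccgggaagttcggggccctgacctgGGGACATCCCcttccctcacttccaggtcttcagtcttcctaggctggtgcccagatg
The capitals mark the NF-kB consensus, searched on both strands, from -173 to -163 and from -8 to 2, counted from the start site at 1. The upstream stretch holds 2 overlapping matches, and the 3 matches in all describe letters in this window, not binding.

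Tlr1 had 222, 224 and 216 CPM in PD-L1 antibody libraries, 96.9, 83.0 and 79.85 CPM in isotype antibody libraries, and 78.8, 103 and 114 CPM in untreated libraries. The SD over the PD-L1 antibody libraries was 4.02 CPM, and all 3 lay above all the others. Its log2 difference was 1.35 ± 0.12 from the isotype antibody (adjusted p = 1.21e-05, limma) and 1.17 ± 0.12 from untreated wells (adjusted p = 3.15e-05). Tlr6 lies 19536 bases from Tlr1 on chromosome 5 and rose less, by 0.50 ± 0.11 on the log2 scale relative to the isotype antibody (adjusted p = 0.00429) and by 0.57 ± 0.11 relative to untreated wells (adjusted p = 0.00178). It had 33.1, 32.9 and 29.3 CPM in PD-L1 antibody libraries, 25.1, 19.2 and 22.5 CPM in isotype antibody libraries, and 20.0, 20.6 and 22.9 CPM in untreated libraries. The groups did not overlap, although the gap was narrow. Per exon length, the ratio of Tlr1 to Tlr6 was 5.77 to 6.35 in PD-L1 antibody libraries, 3.06 to 3.72 in isotype antibody libraries and 3.40 to 4.32 in untreated libraries. The 2 genes share 139 stretches of 150 bases, 4.30% of those of Tlr1 and 3.86% of those of Tlr6, so some reads can belong to either.

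Tlr4, the receptor of lipopolysaccharide (LPS), did not pass the threshold. Its levels were 187, 205 and 180 CPM under PD-L1 antibody, 215, 195 and 216.5 CPM under isotype antibody, and 173.5, 197 and 198.5 CPM in untreated wells, and the groups overlapped. The log2 difference was -0.13 ± 0.09 from the isotype antibody (adjusted p = 0.263, limma) and 0.01 ± 0.09 from untreated wells (adjusted p = 0.943). Per exon length, Tlr2 exceeded Tlr4 by 5.86 to 9.63 times in PD-L1 antibody libraries, against 2.09 to 2.94 times in isotype antibody and 2.79 to 2.95 times in untreated libraries. Tlr5, the flagellin receptor, was near the floor at 1.06 to 4.22 CPM under PD-L1 antibody, 0.644 to 2.01 CPM under isotype antibody and 0.585 to 1.10 CPM in untreated wells. It passed against untreated wells (0.84 ± 0.31, adjusted p = 0.0478, limma), a call lost in 15 of 24 alternative settings, and did not pass against the isotype antibody (0.53 ± 0.31, adjusted p = 0.209), where it passed without PD-L1 antibody library 2 (0.86, adjusted p = 0.0425). Summed over the 5 surface receptors, the libraries held 897 to 1058 CPM under PD-L1 antibody, 500.2 to 506 CPM under isotype antibody and 459 to 543 CPM in untreated wells.

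Of the 5 endosomal receptors, which sense nucleic acids, 1, Tlr3, passed the threshold against the isotype antibody. TLR3 binds double-stranded RNA and signals through TRIF rather than MyD88. Tlr3 had 55.4, 73.1 and 58.4 CPM in PD-L1 antibody libraries, 28.6, 22.1 and 26.55 CPM in isotype antibody libraries, and 25.8, 29.4 and 31.7 CPM in untreated libraries. Every PD-L1 antibody library lay above the other 6, with a log2 difference of 1.24 ± 0.13 from the isotype antibody (adjusted p = 2.84e-05, limma) and 1.07 ± 0.13 from untreated wells (adjusted p = 7.16e-05). An antisense gene, Gm45542, overlaps 7.32% of its exonic bases and has no value of its own here, and the counting is not stated to use strand. The Tlr3 promoter is shown for its single NF-kB match, in capitals from -211 to -202 (RefSeq, GRCm38.p6, chr8:45410331-45410630, minus strand).
Tlr3: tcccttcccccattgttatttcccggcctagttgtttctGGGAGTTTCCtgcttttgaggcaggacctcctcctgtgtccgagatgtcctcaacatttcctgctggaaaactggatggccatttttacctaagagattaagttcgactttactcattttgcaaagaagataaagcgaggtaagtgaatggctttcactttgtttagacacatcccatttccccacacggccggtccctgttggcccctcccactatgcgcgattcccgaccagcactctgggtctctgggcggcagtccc

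Tlr7, Tlr8, Tlr9 and Tlr13 behaved otherwise. Their log2 differences from the isotype antibody were 0.16 ± 0.13, -0.14 ± 0.14, -0.20 ± 0.10 and -0.18 ± 0.12, with adjusted p of 0.38, 0.464, 0.14 and 0.263 (limma). TLR7 and TLR8 belong to the sensors of single-stranded RNA, and their genes lie 40596 bases apart on the X chromosome. Tlr7 stood at 239, 276.5 and 222 CPM under PD-L1 antibody, 245, 195 and 222 CPM under isotype antibody, and 194, 234.5 and 263 CPM in untreated wells, with all groups overlapping. Tlr9, the receptor of unmethylated CpG DNA, was lower under PD-L1 antibody than in untreated wells, at 127.5, 147 and 146 CPM against 176, 173 and 169 CPM (-0.30 ± 0.10, adjusted p = 0.0299, limma). These groups did not overlap, but 7 of 24 alternatives lost the call, among them leaving out PD-L1 antibody library 1 (adjusted p = 0.123), untreated library 8 (0.0727) or untreated library 9 (0.0559). Tlr8 was called lower than in untreated wells once untreated library 7 was left out (-0.38 ± 0.10, adjusted p = 0.00818). With that library it was not called (-0.22 ± 0.14, adjusted p = 0.215), except under total-count scaling (-0.37, adjusted p = 0.0341). Tlr13, which in mice senses bacterial ribosomal RNA, ranged from 300.5 to 402 CPM under PD-L1 antibody, 375 to 439.6 CPM under isotype antibody and 383 to 429 CPM in untreated wells. Summed over these 5 receptors, the libraries held 1069 to 1319 CPM under PD-L1 antibody, 1146 to 1357 CPM under isotype antibody and 1136 to 1409 CPM in untreated wells, so this sum overlapped between groups.

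UNC93B1 carries the endosomal receptors from the endoplasmic reticulum to endosomes. Unc93b1 had 873, 839.8 and 948 CPM under PD-L1 antibody, 1088, 1125 and 899.7 CPM under isotype antibody, and 1042, 1487 and 1486 CPM in untreated wells. The PD-L1 antibody libraries overlapped the isotype antibody ones (-0.22 ± 0.15, adjusted p = 0.274, limma) and lay below the untreated ones (-0.58 ± 0.15, adjusted p = 0.00901). Untreated library 7 was far below libraries 8 and 9 and close to the isotype antibody libraries, and without it the difference from untreated wells was -0.75 ± 0.11 (adjusted p = 0.000169). In bulk samples, fewer cells of a type and less RNA per cell cannot be told apart.

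CD14 hands LPS to the complex of TLR4 and MD-2, the product of Ly96, and also serves TLR2. Cd14 had 1827, 1338 and 2052 CPM in PD-L1 antibody libraries, 477, 589 and 512 CPM in isotype antibody libraries, and 509.5, 681.5 and 679 CPM in untreated libraries. The lowest PD-L1 antibody library was far above the highest of the other 6, and the log2 difference was 1.71 ± 0.17 from the isotype antibody (adjusted p = 1.8e-05, limma) and 1.47 ± 0.17 from untreated wells (adjusted p = 4.9e-05). Per exon length, Cd14 exceeded Tlr4 by 31.0 to 54.1 times under PD-L1 antibody, 10.5 to 14.4 times under isotype antibody and 14.0 to 16.5 times in untreated wells. Ly96 stood at 9.60, 12.1 and 10.3 CPM under PD-L1 antibody, 8.28, 7.535 and 6.45 CPM under isotype antibody, and 6.70, 10.02 and 10.6 CPM in untreated wells. Its difference from the isotype antibody (0.47 ± 0.17, adjusted p = 0.0458, limma) lost the call in 13 of 24 alternatives, with adjusted p from 0.00883 to 0.21, and its difference from untreated wells did not pass (0.22 ± 0.17, adjusted p = 0.302). The losses included leaving out any of the 6 antibody libraries or untreated library 8, with log2 differences of 0.38 to 0.54. Lbp, whose product binds LPS in serum and is made mainly in the liver, was low at 1.25 to 1.80 CPM under PD-L1 antibody, 1.22 to 2.10 CPM under isotype antibody and 0.703 to 1.32 CPM in untreated wells, with no call.

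CD180 and its partner MD-1, the product of Ly86, form a TLR4-like complex on B cells and myeloid cells. Cd180 ranged from 189 to 289 CPM under PD-L1 antibody, 243.5 to 320.2 CPM under isotype antibody and 218 to 290.4 CPM in untreated wells, and did not pass in either comparison. Ly86 had 40.4, 66.9 and 32.1 CPM under PD-L1 antibody, 91.2, 56.6 and 47.4 CPM under isotype antibody, and 59.2, 165 and 189 CPM in untreated wells. The untreated libraries did not form a group of their own: library 7 lay among the antibody libraries and libraries 8 and 9 far above them. Ly86 was lower under PD-L1 antibody than in untreated wells (-1.45 ± 0.41, adjusted p = 0.0143, limma), and by more without library 7 (-1.97 ± 0.28, adjusted p = 0.000142), but the call was lost without PD-L1 antibody library 3 (adjusted p = 0.0607), untreated library 8 (0.0547) or untreated library 9 (0.0554).

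Of the 4 TIR adaptors, Myd88 and Ticam2 rose, Ticam1 fell and Tirap was not called against the isotype antibody. MyD88 serves every mouse TLR except TLR3, and Myd88 rose to 236, 259.6 and 257 CPM under PD-L1 antibody, against 169, 163 and 148 CPM under isotype antibody and 163.5, 169.6 and 174 CPM in untreated wells. The groups did not overlap, with a log2 difference of 0.65 ± 0.08 from the isotype antibody (adjusted p = 7.94e-05, limma) and 0.57 ± 0.08 from untreated wells (adjusted p = 0.000187). The neighbouring gene Acaa1a overlaps 11.3% of the exonic bases of Myd88 on the opposite strand, and it also rose, by 0.62 (adjusted p = 0.000143). Its part in the Myd88 value was not tested. The Myd88 promoter is shown for its match to the interferon response element GAAANNGAAA, in capitals from -40 to -31 (RefSeq, GRCm38.p6, chr9:119339969-119340268, minus strand).
Myd88: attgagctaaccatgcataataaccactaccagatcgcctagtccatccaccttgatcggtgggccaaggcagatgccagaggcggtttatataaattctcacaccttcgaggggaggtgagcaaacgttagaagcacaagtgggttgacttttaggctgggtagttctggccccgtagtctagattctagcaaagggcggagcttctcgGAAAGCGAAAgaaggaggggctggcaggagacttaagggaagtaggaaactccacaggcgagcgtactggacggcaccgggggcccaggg

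TRIF, the product of Ticam1, serves TLR3 and TLR4, and TRAM, the product of Ticam2, bridges TLR4 to TRIF. Ticam1 fell to 53.65, 50.1 and 54.3 CPM under PD-L1 antibody, against 68.7, 66.0 and 64.6 CPM under isotype antibody and 70.6, 61.9 and 57.8 CPM in untreated wells. It is the 1 gene of the 36 with all 3 PD-L1 antibody libraries below the 6 others, and the difference was small: -0.33 ± 0.09 from the isotype antibody (adjusted p = 0.0111, limma) and -0.26 ± 0.09 from untreated wells (adjusted p = 0.0303), or -0.18 ± 0.07 without untreated library 7 (adjusted p = 0.0573). The call against untreated wells was also lost without PD-L1 antibody library 1 (0.0631), PD-L1 antibody library 2 (0.102) or untreated library 8 (0.0605). Ticam2 had 66.8, 65.3 and 71.3 CPM under PD-L1 antibody, 51.3, 54.6 and 50.55 CPM under isotype antibody, and 47.9, 59.5 and 57.7 CPM in untreated wells. Its groups did not overlap (0.37 ± 0.09, adjusted p = 0.00835, and 0.30 ± 0.09, adjusted p = 0.0212, limma), and the call against the isotype antibody was lost under total-count scaling (adjusted p = 0.0772) and in edgeR on the deposited read numbers (0.0722). The call against untreated wells was lost in 8 of 24 alternatives, among them leaving out PD-L1 antibody library 1 (0.0522) or PD-L1 antibody library 3 (0.076). Per exon length, Ticam2 to Ticam1 stood at 1.08 to 1.14 under PD-L1 antibody, 0.647 to 0.718 under isotype antibody and 0.589 to 0.865 in untreated wells. Tmed7 shares 14.5% of the exonic bases of Ticam2 on the same strand and did not pass (0.15, adjusted p = 0.364). Tirap, whose product brings MyD88 to TLR2 and TLR4, had 27.6 to 28.6 CPM under PD-L1 antibody and 25.2 to 28.6 CPM under isotype antibody (0.07 ± 0.11, adjusted p = 0.631), and was higher under PD-L1 antibody than the 18.5 to 24.2 CPM of untreated wells (0.45 ± 0.11, adjusted p = 0.00644, limma, and 0.0593 under total-count scaling).

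Of the 3 IRAK family members that carry the signal behind MyD88, Irak2 rose, while Irak1 and Irak4 did not pass against the isotype antibody. Irak2 had 111, 97.0 and 117 CPM under PD-L1 antibody, 76.6, 78.0 and 82.5 CPM under isotype antibody, and 85.8, 67.3 and 71.4 CPM in untreated wells. The groups did not overlap (0.45 ± 0.10, adjusted p = 0.00555, and 0.53 ± 0.10, adjusted p = 0.00171, limma), although edgeR on the deposited read numbers (adjusted p = 0.141) and total-count scaling (0.0719) did not call the difference from the isotype antibody. Irak4, the kinase at the head of the MyD88 complex, had 50, 46.2 and 44.15 CPM under PD-L1 antibody, 58.6, 54.6 and 53.3 CPM under isotype antibody, and 49.7, 61.9 and 62.7 CPM in untreated wells. It was called lower than in untreated wells (-0.30 ± 0.10, adjusted p = 0.0311, and -0.41 ± 0.08, adjusted p = 0.00114, without untreated library 7), a call lost without PD-L1 antibody library 2 (0.0831), PD-L1 antibody library 3 (0.101), untreated library 8 (0.113) or untreated library 9 (0.11). Against the isotype antibody, Irak4 missed the threshold (-0.24 ± 0.10, adjusted p = 0.0802, limma), although these groups did not overlap. It passed in 4 of 24 alternatives. These were total-count scaling (-0.42, adjusted p = 0.00382), upper-quartile scaling (-0.30, 0.031) and the fit of only the 2 groups compared (-0.24, 0.0293). The last was the fit where untreated library 7 no longer entered the shared estimate of spread (-0.25, 0.0144). Irak1 ranged from 97.0 to 103 CPM under PD-L1 antibody, 107 to 114 CPM under isotype antibody and 91.3 to 112 CPM in untreated wells (-0.15 ± 0.09 from the isotype antibody, adjusted p = 0.22).

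Among the ubiquitin ligases, Traf3 and Peli1 were higher, and with all 9 libraries Traf6 was not called. Peli1, a Pellino ligase that acts on IRAKs and in TRIF signalling, had 94.0, 109 and 100.4 CPM under PD-L1 antibody, 61.0, 54.0 and 59.7 CPM under isotype antibody, and 57.5, 52.9 and 58.1 CPM in untreated wells. The groups lay far apart for their spread (0.79 ± 0.08, adjusted p = 3.35e-05, and 0.84 ± 0.08, adjusted p = 1.98e-05, limma). Traf3, which links TRIF to the interferon arm, had 78.3, 72.2 and 82.9 CPM under PD-L1 antibody, 50.2, 56.3 and 56.8 CPM under isotype antibody, and 53.85, 35.7 and 34.5 CPM in untreated wells. The value of untreated library 7 was between the lowest and the highest isotype antibody library, and untreated libraries 8 and 9 were below all of them. The log2 difference of Traf3 was 0.51 ± 0.15 from the isotype antibody (adjusted p = 0.0182, limma), lost in 8 of 24 alternatives, among them leaving out PD-L1 antibody library 1 (adjusted p = 0.0535), PD-L1 antibody library 3 (0.065) or isotype antibody library 4 (0.066). From untreated wells it was 0.92 ± 0.15 (adjusted p = 0.000476), and 1.12 ± 0.08 without library 7 (adjusted p = 1.01e-06). Traf6, the ligase of the MyD88 arm, ranged from 48.45 to 53.4 CPM under PD-L1 antibody, 49.95 to 52.1 CPM under isotype antibody and 41.8 to 50.1 CPM in untreated wells (-0.02 ± 0.08 from the isotype antibody, adjusted p = 0.887). From untreated wells the Traf6 difference was 0.14 ± 0.08 (adjusted p = 0.202, limma). Without untreated library 7 it was called higher (0.20 ± 0.08, adjusted p = 0.0433).

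TAK1, the product of Map3k7, works with the adaptors TAB1 and TAB2, and Tpl2, the product of Map3k8, passes the signal to the ERK kinases. With the scaling used here, none of these 4 genes passed limma's threshold in any comparison, with or without untreated library 7. Their log2 differences from the isotype antibody were -0.17 ± 0.09 for Tab1, 0.15 ± 0.11 for Tab2, -0.07 ± 0.09 for Map3k7 and 0.12 ± 0.10 for Map3k8, with adjusted p of 0.175, 0.291, 0.55 and 0.373. Total-count scaling called Tab1 and Map3k7 lower than under isotype antibody (adjusted p = 0.0149 and 0.0302). Tab1 was also called lower than in untreated wells under total-count scaling (-0.32, adjusted p = 0.0186) and upper-quartile scaling (-0.26, adjusted p = 0.0462). Map3k7 ranged from 46.8 to 51.5 CPM under PD-L1 antibody, 50.3 to 53.7 CPM under isotype antibody and 47.9 to 57.6 CPM in untreated wells.

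All 3 genes of the NOD arm rose. Nod1, the sensor of a peptidoglycan fragment typical of Gram-negative bacteria, had 112, 127.5 and 126 CPM under PD-L1 antibody, 43.1, 33.0 and 31.75 CPM under isotype antibody, and 43.25, 51.45 and 53.3 CPM in untreated wells. The log2 difference was 1.74 ± 0.12 from the isotype antibody, a fold of 3.35 (adjusted p = 1.67e-06, limma), and 1.29 ± 0.12 from untreated wells (adjusted p = 1.38e-05). All 3 isotype antibody libraries lay below all 3 untreated ones, a difference that did not pass with all libraries (-0.45 ± 0.12, adjusted p = 0.346) and passed without untreated library 7 (-0.54 ± 0.12, adjusted p = 0.0108). Nod2, the sensor of muramyl dipeptide, had 39.6, 42.8 and 44.9 CPM under PD-L1 antibody, 18.9, 17.5 and 17.7 CPM under isotype antibody, and 20.1, 14.9 and 14.8 CPM in untreated wells. Its groups were far apart (1.19 ± 0.12, adjusted p = 2.05e-05, and 1.31 ± 0.12, adjusted p = 9.57e-06, limma). Ripk2, the kinase both receptors use, rose less: 17.0, 21.9 and 23.2 CPM under PD-L1 antibody, 13.5, 14.25 and 12.7 CPM under isotype antibody, and 15.6, 11.4 and 13.6 CPM in untreated wells (0.57 ± 0.14, adjusted p = 0.00779, and 0.58 ± 0.14, adjusted p = 0.00662). Per exon length, Nod1 to Nod2 stood at 3 to 3.19 under PD-L1 antibody, 1.92 to 2.43 under isotype antibody and 2.30 to 3.85 in untreated wells.

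Of the 3 inhibitors, Irak3 had the largest difference of the 36 genes, and Tollip and Sigirr were not called. IRAK-M is found mainly in monocytes and macrophages and lacks a working kinase, and it holds back signalling from the MyD88 complex. Irak3 had 236, 231 and 287 CPM in PD-L1 antibody libraries, 43.1, 36.7 and 35.5 CPM in isotype antibody libraries, and 32.9, 37.1 and 40.5 CPM in untreated libraries. The groups did not come near each other: the log2 difference was 2.67 ± 0.11 from the isotype antibody, a fold of 6.38 (adjusted p = 4.27e-08, limma), and 2.73 ± 0.11 from untreated wells, a fold of 6.65 (adjusted p = 3.23e-08). Per exon length, Irak3 to Irak4 stood at 4.48 to 6.18 under PD-L1 antibody, 0.634 to 0.699 under isotype antibody and 0.570 to 0.630 in untreated wells, so the order of the 2 genes differed between groups. Tmbim4 overlaps 5.22% of the exonic bases of Irak3 and was also higher (0.56, adjusted p = 0.000435), at 74.1 CPM on average under PD-L1 antibody and 49.8 CPM under isotype antibody. The Irak3 promoters are shown because the gene moved most and neither start holds any of the 3 motifs searched (RefSeq, GRCm38.p6, chr10:120201548-120201847 and chr10:120202081-120202380, minus strand, no capitals).
Irak3, start nearer the gene body: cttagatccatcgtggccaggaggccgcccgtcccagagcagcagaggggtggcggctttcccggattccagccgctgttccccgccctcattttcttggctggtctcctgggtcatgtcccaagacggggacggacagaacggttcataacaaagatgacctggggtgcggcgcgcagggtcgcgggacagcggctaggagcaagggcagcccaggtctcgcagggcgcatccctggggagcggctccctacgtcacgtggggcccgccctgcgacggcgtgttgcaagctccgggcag
Irak3, upstream start: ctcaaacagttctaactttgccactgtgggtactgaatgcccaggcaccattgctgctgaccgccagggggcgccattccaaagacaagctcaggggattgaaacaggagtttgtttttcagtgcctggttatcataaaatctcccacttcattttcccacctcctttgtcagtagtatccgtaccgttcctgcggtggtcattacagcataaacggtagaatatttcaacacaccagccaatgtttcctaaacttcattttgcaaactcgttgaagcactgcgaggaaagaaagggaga

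Tollip, an adaptor that restrains IRAK1, had 118, 120.5 and 111 CPM under PD-L1 antibody, 122, 113 and 126.5 CPM under isotype antibody, and 104, 112 and 106 CPM in untreated wells (-0.05 ± 0.07 from the isotype antibody, adjusted p = 0.622, limma). Sigirr, an inhibitory member of the IL-1 receptor family, was low, at 3.07 to 3.60 CPM under PD-L1 antibody, 3.48 to 6.82 CPM under isotype antibody and 3.18 to 7.80 CPM in untreated wells. The isotype antibody and untreated libraries each held a wide range of Sigirr values, and the difference from the isotype antibody did not pass (-0.59 ± 0.28, adjusted p = 0.119). It passed when isotype antibody library 4 or untreated library 7 was left out, with log2 differences of -0.85 (adjusted p = 0.0323) and -0.59 (adjusted p = 0.0288).

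At a fold of 2 or more with an adjusted p under 0.05, 7 of the 36 genes (19.4%) were higher than under isotype antibody, beside 4.36% of all tested genes: Tlr1, Tlr2, Tlr3, Cd14, Nod1, Nod2 and Irak3. Among the 16 genes called against the isotype antibody, 11 were called under all 24 alternatives. Of the 20 not called, 9 were called under none of them.

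Levels of different genes were set side by side as CPM per kilobase of exon. Under PD-L1 antibody the order was led by Cd14 at 1047, Unc93b1 at 391, Tlr2 at 189 and Myd88 at 132, and the ranges over libraries of the first 4 were separate except that Myd88 overlapped Cd180, the next. Under isotype antibody Unc93b1 led at 458, followed by Cd14 at 317 and Cd180 at 125. In untreated wells Unc93b1 led at 591, followed by Cd14 at 375 and Ly86 at 138, the last with a range of 59.4 to 189. Irak3 stood at rank 7 of 36 under PD-L1 antibody (84.6 per kilobase), rank 21 under isotype antibody (12.95) and rank 22 in untreated wells (12.4). The lowest 3 were Sigirr, Tlr5 and Lbp in each of the groups.

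**Figure D3:**
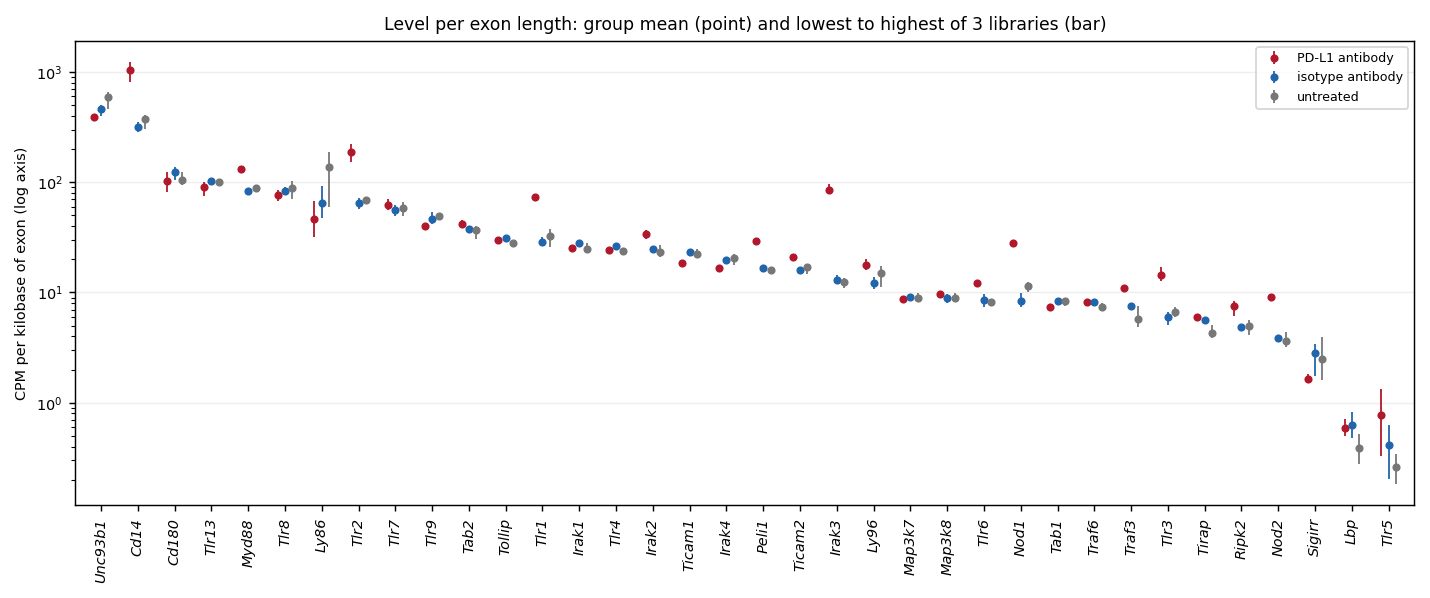
CPM per kilobase of exon (log axis) of the 36 genes, ordered by their level under isotype antibody, with the group mean as a point and the lowest to highest of 3 libraries as a bar, for PD-L1 antibody (red), isotype antibody (blue) and untreated wells (grey). Cd14, Tlr2, Tlr1, Irak3, Nod1, Tlr3 and Nod2 stand out as genes whose PD-L1 antibody point lies clearly above the other 2.

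The comparison of the isotype antibody with untreated wells gives the background that an antibody without this target leaves in the same genes. With all 9 libraries, limma called 0 of the 36 genes, beside 0.00728% of all tested genes. At an unadjusted p under 0.05 there were 7 of the 36 genes and 1745 of the 13728 tested, and on exonic read equivalents edgeR called 0 genes and DESeq2 13 among all genes, none of them among the 36. Without untreated library 7, 3 of the 36 were called higher (Tirap, Irak1, Traf3), beside 9.58% of all genes, and 4 lower (Tlr1, Ly86, Unc93b1, Nod1), beside 6.85% of all genes. The log2 differences were then 0.62 ± 0.08 for Traf3, 0.49 ± 0.09 for Tirap, 0.26 ± 0.07 for Irak1, -0.33 ± 0.09 for Tlr1, -0.52 ± 0.11 for Unc93b1, -0.54 ± 0.12 for Nod1 and -1.48 ± 0.28 for Ly86. None of these calls held with library 7, and what sets this library apart was not tested. For Ly86, Unc93b1 and Traf3, the genes in which library 7 was seen to differ, the calls follow in part from leaving it out.

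**Figure D4:**
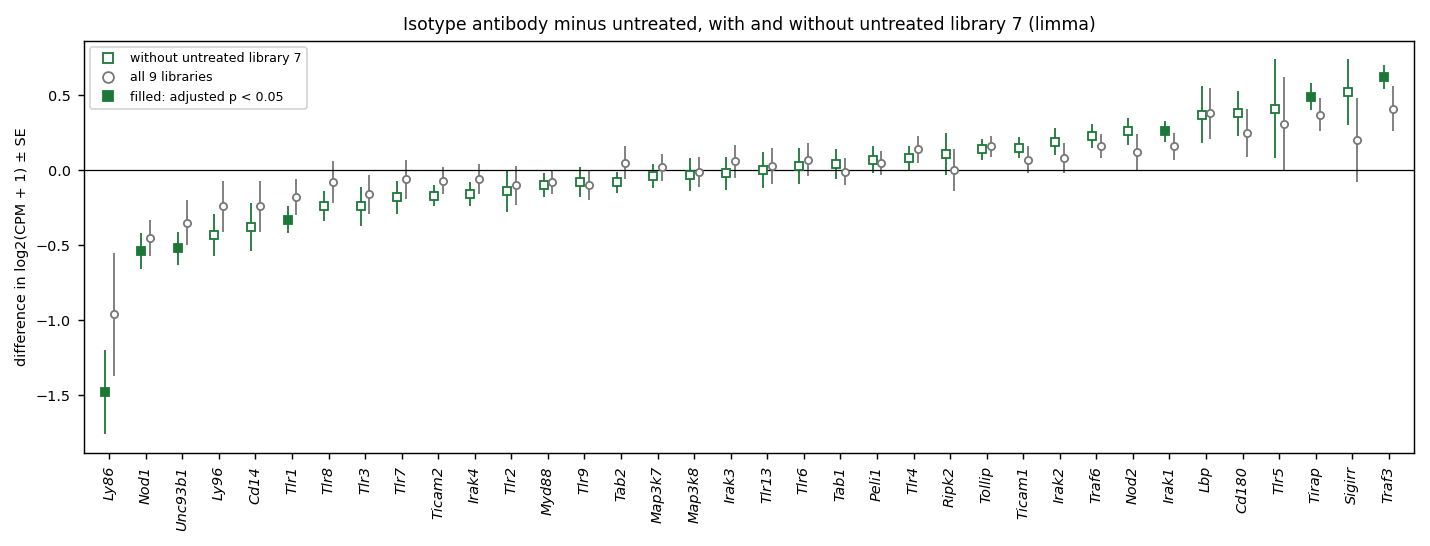
Difference in log2(CPM + 1) with its SE, isotype antibody minus untreated, for each of the 36 genes without untreated library 7 (squares) and with all 9 libraries (circles), ordered by the values without that library, with filled symbols past limma's adjusted p of 0.05. Ly86 lies lowest at -1.48 without library 7 and -0.96 with it, and no circle is filled.

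Around the 36 genes, 100 further genes of the route were listed, also with earlier results of these data known. Of these, 99 were tested and Slc46a2 was under the filter. Under PD-L1 antibody, 49 of the 99 rose and 10 fell relative to the isotype antibody, and 51 rose and 11 fell relative to untreated wells. These are 49.5% and 10.1% of the 99 against the isotype antibody, beside 18.2% of all tested genes called higher and 18.2% called lower, and 51.5% and 11.1% against untreated wells, beside 22.0% and 20.5%. The same background shares against the isotype antibody, 18.2% in each direction, apply to each list that follows. The median log2 difference from the isotype antibody was 0.33, against -0.01 over all tested genes. Between the isotype antibody and untreated wells limma called 0 of the 99.

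Downstream of TAK1, 3 of 15 genes of the IKK complex, NF-kB subunits and MAP kinases rose relative to the isotype antibody and 2 fell. At 20.0% and 13.3% of the list, these counts are near the shares of all tested genes. Relative to untreated wells, 7 rose and 2 fell, 46.7% and 13.3% of the list, beside 22.0% and 20.5% of all tested genes. Without untreated library 7 the counts were the same, beside 24.6% and 23.8%. Relative to the isotype antibody, Ikbkg, the regulatory subunit NEMO, was higher by 0.48 ± 0.09 on the log2 scale (adjusted p = 0.00122, limma), Map2k4 by 0.37 ± 0.07 (adjusted p = 0.0017) and Nfkb1 by 0.45 ± 0.10 (adjusted p = 0.00396). On the arms to interferon regulatory factors, 5 of 10 rose and 0 fell. Ikbke, a kinase of the TBK1 family, rose by 1.11 ± 0.09 (adjusted p = 3.37e-06), and the TBK1 adaptors Tank and Azi2 rose by 0.91 ± 0.10 and 0.89 ± 0.09.

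In the list for folding, processing and transport of TLRs, 3 of 10 rose and 1 fell, and the 2 endosomal peptide transporters moved apart. Slc15a3 had 1134 to 1367 CPM under PD-L1 antibody, against 418 to 518 CPM under isotype antibody (1.40 ± 0.11, adjusted p = 3.22e-06, limma). Slc15a4 had 89.3 to 96.2 CPM under PD-L1 antibody, against 152 to 174 CPM under isotype antibody (-0.79 ± 0.09, adjusted p = 5.46e-05). Lrrc59, which takes part in moving nucleic acid-sensing TLRs, rose by 0.77 ± 0.09.

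Of 17 other inhibitors, 10 rose and 3 fell. Zc3h12a, the RNase Regnase-1, rose by 1.74 ± 0.13 (adjusted p = 2.98e-06, limma), Nfkbia, the NF-kB inhibitor IkBα, by 1.47 ± 0.12 (adjusted p = 4.47e-06) and Tnip1, a partner of A20, by 1.27 ± 0.10 (adjusted p = 4.53e-06). Of 19 ubiquitin enzymes and NOD partners, 7 rose and 2 fell. Birc3, the ligase cIAP2 that acts on RIPK2, rose by 1.01 ± 0.08 (adjusted p = 2.71e-06), the TLR adaptor Scimp by 1.17 ± 0.15 from low levels and Traf2 by 0.78 ± 0.12.

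Among 12 target genes of NF-kB, 9 rose and 0 fell relative to the isotype antibody. Il1b had 524.5, 421 and 637 CPM under PD-L1 antibody, against 39.4, 26.9 and 22.1 CPM under isotype antibody (4.14 ± 0.19, adjusted p = 5.85e-08, limma). Ptgs2 and Cxcl1 rose by 3.72 ± 0.27 and 2.90 ± 0.14. All 10 target genes of IRF3 and interferon rose, with Cxcl10 at 263, 367 and 291 CPM under PD-L1 antibody, against 29.3, 22.2 and 30.01 CPM under isotype antibody (3.45 ± 0.15, adjusted p = 5.05e-08). Ifit1 rose by 1.77 ± 0.17, and Ifnb1 had 2.08 to 2.875 CPM under PD-L1 antibody, against 0.0546 to 0.1265 CPM under isotype antibody.

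Of 6 other mouse TLRs and TIR-domain proteins, 2 rose and 2 fell. Il1r1, whose product also signals through MyD88, had 22.5 to 24.6 CPM under PD-L1 antibody, against 2.23 to 4.08 CPM under isotype antibody (2.69 ± 0.20, adjusted p = 2.25e-06, limma). The profilin receptors Tlr11 and Tlr12 fell by 1.12 and 0.67 on the log2 scale, at levels of 0.335 to 0.615 CPM and 0.742 to 1.32 CPM under PD-L1 antibody, against 1.67 to 2.99 CPM and 1.42 to 2.81 CPM under isotype antibody. The Tlr12 call was lost in 8 of 24 alternatives, among them leaving out PD-L1 antibody library 2 (adjusted p = 0.0563, limma), PD-L1 antibody library 3 (0.064), isotype antibody library 4 (0.0541) or isotype antibody library 5 (0.0754).

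Of the 36 genes, 25 matched the RefSeq promoter table (GRCm38.p6), with 33 promoters of 300 bases among 32851 in all. The NF-kB consensus stood in 6 promoters of 5 genes (Tlr2, Tlr3, Traf3, Map3k7 and Irak1), beside 8.46% of all promoters, and GAAANNGAAA stood in 2, of Myd88 and Tlr6, beside 3.44%. The AP-1 element TGANTCA stood in 1, of Tlr9, beside 7.81%. Motifs were searched on both strands. Of the 5 genes with an NF-kB match, Tlr2, Tlr3 and Traf3 rose relative to the isotype antibody, and Map3k7 and Irak1 were not called. Nod1, Nod2, Tlr1, Peli1, Irak2 and Irak3 rose with none of the 3 motifs in these windows, which says only that the letters were not there. The Tlr6 promoter at the upstream start (chr5:64959999-64960298), whose window holds the 5′ end of the transcript measured, has none of the 3 motifs. The Tlr6 promoter at the downstream start is shown beside that of Myd88, since both carry the interferon response element. Here it is in capitals as its reverse complement from -116 to -101 with 2 overlapping matches (chr5:64959117-64959416, minus strand).
Tlr6: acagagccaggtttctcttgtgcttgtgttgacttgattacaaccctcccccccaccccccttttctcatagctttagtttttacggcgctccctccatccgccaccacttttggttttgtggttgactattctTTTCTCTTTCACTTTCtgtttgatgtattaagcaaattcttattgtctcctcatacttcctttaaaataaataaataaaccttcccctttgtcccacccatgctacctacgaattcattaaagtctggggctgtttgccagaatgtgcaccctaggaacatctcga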

How the data were processed

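Poly(A) RNA was sequenced as 9 libraries, in pairs of 150-base reads. Per the submitters' processing notes, Partek and STAR were used, and versions, steps and the genome build are not given in the sources used here. 99.1% of symbols found in RefSeq GRCm38.p6 overlapped the gene of that name at the files' positions. Per the file headers, the authors deposited for each RefSeq transcript a read count, the average coverage (a signal per exonic base), the exon length and the percent of bases covered. The deposited read counts span introns and overlapping genes, and isoforms repeat them: in 4611 of 4738 cases, isoforms sharing their whole span carried an identical read number. The analysis therefore used exonic read equivalents, coverage times exon length divided by 150, with 1 transcript per symbol, and edgeR's test on the deposited counts became an alternative.

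Genes were filtered with filterByExpr, scaled by TMM (edgeR 4.0.16), turned into log2(CPM + 1) with a pseudocount of 1, and fitted over all 9 libraries in limma 3.58.1 (R 4.3.3) with a trend in the variance and a mean for each group. Tests were two-sided, with Benjamini-Hochberg adjustment over all tested genes and a threshold of 0.05. The procedure was tested on simulated data. DESeq2 1.42.0, limma-voom, other scalings, filters, pseudocounts and leaving out each library were alternatives, 24 in all. By the deposited names, PD-L1 antibody library 2 carries another lane number than the rest, and counts of calls are also given without it. Intervals and p-values do not cover PCR duplicates, which are not independent molecules. The members, the role lists, the 100 further genes and the markers were chosen with earlier results of these data known. All members are named in the text, with Cd274 and, of each further list, the 3 genes with the lowest p against the isotype antibody. Promoters came from RefSeq. One marker list is not reported here.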

Additional observations from a re-analysis of the deposited data

How the results depend on the processing

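No member called with the settings used changed sign under any of the 24 alternatives. Members that were not called did: 6 of the 36 between the antibodies, 8 between the PD-L1 antibody and untreated wells and 11 between the isotype antibody and untreated wells changed sign in at least 1 alternative. Of 360 counts, 318 stayed within 1.5 times of the value reported, with 0 beside 0 taken as unchanged. The counts of members and pathway genes between the isotype antibody and untreated wells were 0 except without untreated library 7, and they raise that share. At an adjusted p of 0.01, 3223 genes were called between the antibodies, 3824 between the PD-L1 antibody and untreated wells and 0 between the isotype antibody and untreated wells; 0 and 1 of the 36 genes were then lower in the first 2 comparisons, and 5 and 6 of the other pathway genes. Total-count scaling gave 10 lower members and 18 lower pathway genes between the antibodies, and 17 lower pathway genes against untreated wells. Lower members between the antibodies numbered 2 under upper-quartile scaling and 3 in a fit of only the 2 groups compared. Lower members against untreated wells numbered 2 with no low-count filter and 3 in the fit of only 2 groups. Between the isotype antibody and untreated wells, total-count scaling called 2 genes, edgeR on exonic read equivalents 0, DESeq2 13, limma-voom 0, edgeR on the deposited reads 2 with 1 transcript and 2 when summed, and the fit of only 2 groups 0. The causes were not tested.

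Leaving out each library in turn gave 1 to 3 lower members and 5 to 11 lower pathway genes between the antibodies, and 1 to 5 and 7 to 14 against untreated wells. Between the isotype antibody and untreated wells it gave 0 to 2297 genes, 0 to 3 higher and 0 to 4 lower members, and 0 to 9 higher and 0 to 3 lower pathway genes, with each maximum reached without untreated library 7. No paired analysis was possible because the labels do not say which libraries of different groups, if any, belong together. Depth limits Tlr5, Lbp and Sigirr most, which held 17.4 to 102, 23.1 to 66.4 and 77.6 to 250.0 exonic read equivalents per library.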
